A study of Mus musculus with 6 samples.

Results

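Itgam, Itgax, Csf1r, Emr1, Cd68, Cd14, Lyz2, S100a8, S100a9 and Cd163 are 10 genes used as markers of macrophages, dendritic cells and neutrophils, and were followed in the jejunum of irradiated mice. They were found by gene name among the non-control probes of an expression array, which gave 15 probes for the 10 genes out of 55681 non-control probes. The whole series has 16759 named genes that were tested. The tissue came from male C57BL/6J mice. In the VND3207 group, 3 mice received 100 mg/kg of VND3207, a radioprotective compound under study, directly into the stomach. In the vehicle group, 3 mice received an equal volume of the vehicle. All 6 mice were exposed to 9 Gy of radiation 0.5 h after dosing, and jejunum was taken 6 h after the exposure. No unirradiated mice are among the samples, so each value below compares VND3207 with vehicle in irradiated tissue, and none measures the response to radiation. Whole jejunum was used, so fewer myeloid cells and less RNA per myeloid cell cannot be told apart.

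Macrophages, dendritic cells and neutrophils are myeloid cells of the innate immune system. The lamina propria of the intestine holds a large population of resident macrophages and dendritic cells that sample bacteria and clear dead cells, while neutrophils enter mainly during injury or infection. By role the 10 genes are adhesion and complement receptors (Itgam, Itgax), cell-surface receptors for a growth factor (Csf1r), for microbial products (Cd14), for adhesion (Emr1) and for scavenging (Cd163), a lysosomal glycoprotein (Cd68), and secreted antimicrobial proteins (Lyz2, S100a8, S100a9). Csf1r is the receptor through which the cytokines Csf1 and Il34 maintain macrophages. S100a8 and S100a9 form calprotectin, an abundant cytosolic protein complex of neutrophils.

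Each array carried 1 colour and probes of 60 bases. Levels are given as the log2 of the processed signal minus the log2 of that array's 75th percentile, so a level of 0 equals the 75th percentile of the array, and differences are VND3207 minus vehicle. Probes well above background made up 58.8% to 61.4% of the spots on the VND3207 arrays, against 66.7% to 70.0% on the vehicle arrays. All VND3207 arrays were on 1 slide and all vehicle arrays on another, so slide and treatment cannot be told apart. All 12 jejunal enterocyte markers passed the filter on dim probes, and 5 of them fell, with a summed linear level of 2247 to 2530 in the VND3207 group and 3032 to 3559 in the vehicle group, and their part in the members' values was not tested. Markers of fat tissue differed between single arrays, with a summed linear level of 5.17 to 103 in the VND3207 group and 3.63 to 24.7 in the vehicle group over 6 of 6 genes tested. Smooth muscle markers were low on VND3207 replicate 3. Their median deviation from their own means was 0.44, 0.32 and -1.69 in the VND3207 group, against 0.17, 0.17 and 0.48 in the vehicle group. The part of smooth muscle in the members' values was not tested. Markers of erythrocytes had a summed linear level of 16.2 to 44.8 in the VND3207 group and 35.5 to 91.5 in the vehicle group over 6 of 7 genes tested. Lyz1, the Paneth cell lysozyme and the closest relative of Lyz2, had levels of 7.60, 7.68 and 7.67 in the VND3207 group, against 8.32, 8.28 and 8.32 in the vehicle group. It was lower by 0.65 ± 0.09 on the log2 scale (SE, n = 3 each; limma adjusted p = 0.00602), a call lost under 3 of 17 alternatives: quantile normalization (adjusted p = 0.123), the authors' deposited value table (adjusted p = 0.114) and replicate 1 of both groups left out (adjusted p = 0.0803).

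Some of the member probes are shown as the array's design file gives them, 5′ to 3′, with mm9 positions from the files. The 2 dimmer Itgam probes are shown because they stood on opposite sides of 0. The others are a selection of member probes that hold a reading frame free of stop codons.

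Itgam probe 1, chr7:135212140-135212199, plus strand: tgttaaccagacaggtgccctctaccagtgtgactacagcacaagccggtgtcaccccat

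Itgam probe 2, chr7:135260275-135260334, plus strand: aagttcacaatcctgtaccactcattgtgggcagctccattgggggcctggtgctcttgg

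Itgax, chr7:135294052-135294111, plus strand: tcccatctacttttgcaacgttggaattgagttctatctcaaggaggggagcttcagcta

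Emr1 probe 1, chr17:57620350-57620409, plus strand: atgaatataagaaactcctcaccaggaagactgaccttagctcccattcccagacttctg

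Lyz2, chr10:116719175-116719234, minus strand: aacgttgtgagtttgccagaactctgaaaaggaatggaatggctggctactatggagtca

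S100a8, chr3:90473778-90473837, plus strand: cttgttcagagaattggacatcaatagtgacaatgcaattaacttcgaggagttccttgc

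None of these 6 probes shared a run of 16 bases with more than 1 probe of another gene, and Lyz2 shared none with Lyz1. Itgam probe 3, the brightest of the gene (chr7:135261755-135261814, plus strand), differs in this respect. It holds 20 bases of alternating C and A, shown here in capitals as the repeat: CACACACACACACACACACA. It shared a run of 16 bases with 117 probes of other genes. Of the probes tested, 1.646% shared such a run with at least 10 probes of other genes, while 72.859% shared none.

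Of the 10 genes, 9 passed the filter on dim probes, which asks for a signal well over background on 3 or more of the 6 arrays, through 14 probes. The level of each gene is taken from its brightest such probe. Of these 9 genes, 7 had a higher mean in the VND3207 group and 2 a lower one, with a median difference of 0.15 and a range from -0.89 to 0.43 on the log2 scale. The lowest value was that of Cd68, whose dim probe passed the filter through the vehicle group. With 1 array left out, the median ranged from -0.011 to 0.34, the lowest without VND3207 replicate 1 and the highest without vehicle replicate 1. Over the 16759 named genes tested, the median was -0.00 and 49.4% were above 0. In limma's test with Benjamini-Hochberg adjustment over all probes tested and a threshold of 0.05, 0 of the 9 genes rose, and 0 did so at an unadjusted p under 0.05. One fell, Itgam on probe 3, and 2 were lower at an unadjusted p under 0.05, Itgam on probe 3 and Cd68. The share of all named genes at that unadjusted threshold was not counted. Counts at it, here and for the lists below, therefore have no background to be read against. Among all named genes tested, 0.722% rose and 8.63% fell. On single probes, 0 of 14 member probes rose and 1 fell, where 0.925% and 14.6% of the 36097 probes tested did. The members' counts of adjusted calls are near these shares.

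**Figure D1:**
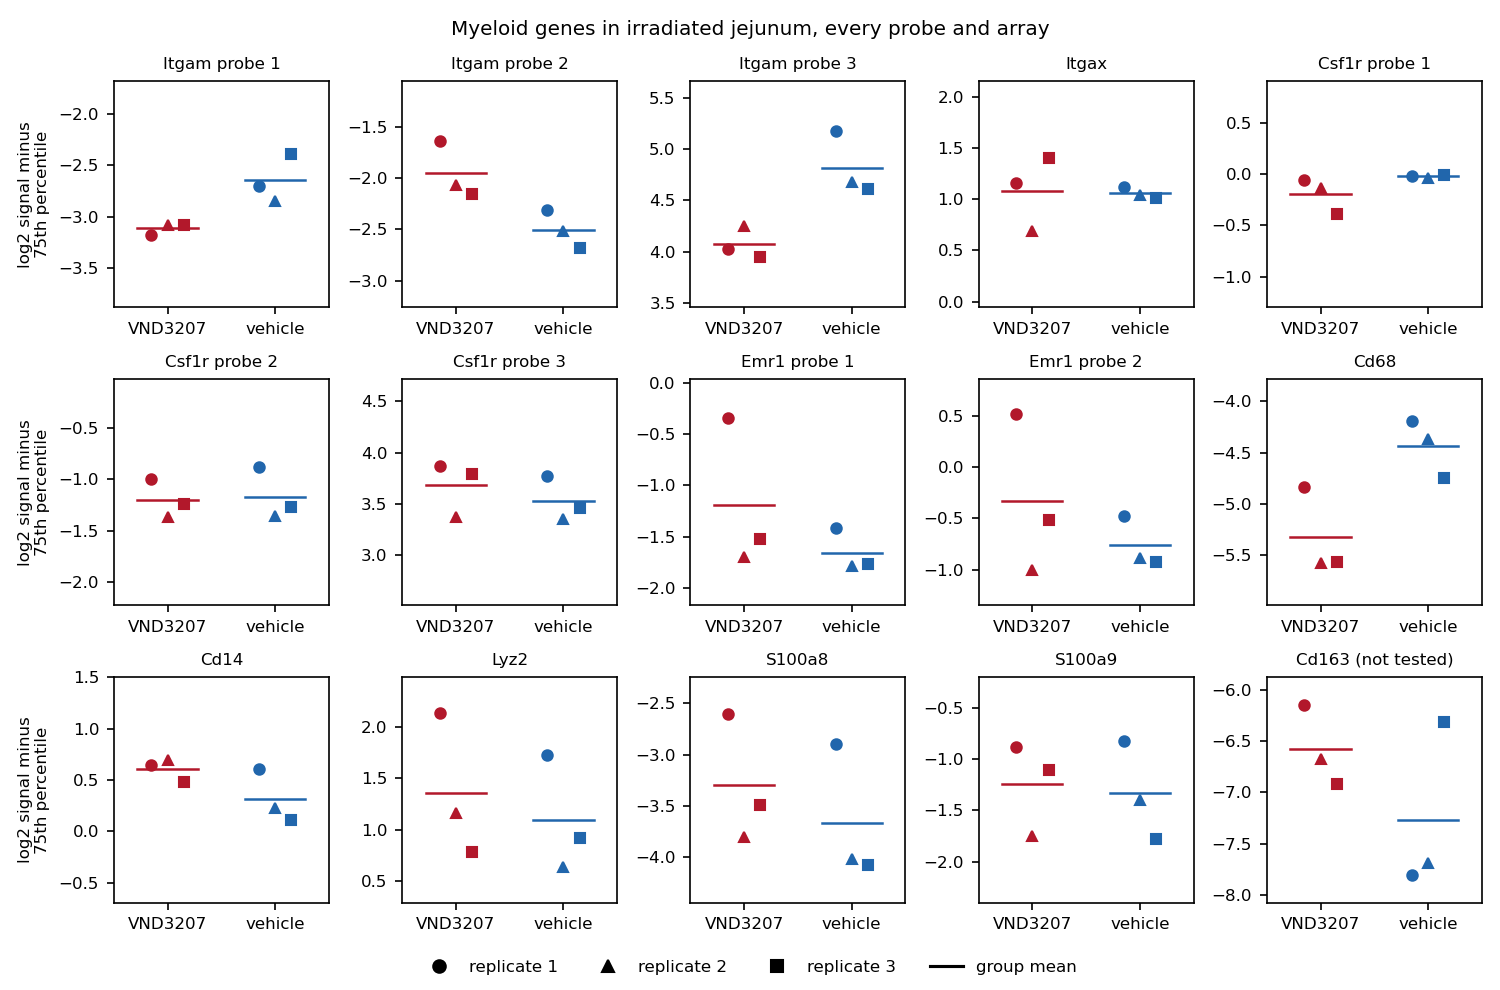
Level of all 15 member probes (log2 signal minus the array's 75th percentile, with a scale of its own in each panel) on the 3 VND3207 arrays (red) and the 3 vehicle arrays (blue); symbols give the replicate and lines the group means. On Itgam probes 1 and 3, Csf1r probe 1 and Cd68 all VND3207 arrays lie below all vehicle arrays. On Itgam probe 2 all lie above, and 9 of the 14 tested probes overlap. Cd68 passed the filter on dim probes through the vehicle group.

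The groups failed to overlap for 2 of the 9 genes, Itgam on probe 3 and Cd68, with all VND3207 arrays below all vehicle arrays. Cd68 was well above background on 1 of 3 VND3207 arrays and 3 of 3 vehicle arrays. It passed the filter through the vehicle group, so its place in this count carries that limit. Among named genes, 17.1% had all VND3207 arrays below and 11.5% had all of them above. Over the 14 member probes, 4 had all VND3207 arrays below, 1 had all above and 9 overlapped, against 24.9% below and 9.41% above among all probes tested.

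Itgam encodes the alpha chain of the complement receptor CD11b/CD18, carried by neutrophils, monocytes and many macrophages. Its 3 probes did not give the same direction. The array's annotation labels probe 1 with a RefSeq transcript other than that of probes 2 and 3. The part of this in their differences was not tested. On probe 3 the levels were 4.02, 4.24 and 3.94 in the VND3207 group, against 5.17, 4.67 and 4.61 in the vehicle group. Every VND3207 array lay below every vehicle array. The difference was -0.75 ± 0.18 (SE, n = 3 each), a 95% interval from -1.19 to -0.30, with a limma adjusted p of 0.0421. This call was made under 5 of 17 alternative settings, with adjusted p between 0.019 and 0.165. Leaving out any 1 of the 6 arrays ended it, with differences from -0.85 to -0.57.

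On probe 1 the Itgam levels were -3.18, -3.08 and -3.08 in the VND3207 group, against -2.70, -2.85 and -2.39 in the vehicle group. The VND3207 arrays were again all lower, by -0.47 ± 0.14 (SE, n = 3 each), which did not pass the test (limma adjusted p = 0.0832). On probe 2 they were -1.64, -2.06 and -2.16 in the VND3207 group, against -2.31, -2.52 and -2.68 in the vehicle group. Here the VND3207 arrays were all higher, by 0.55 ± 0.18 (SE, n = 3 each), also short of the threshold (limma adjusted p = 0.101). With quantile normalization probe 2 passed, at 0.77 (adjusted p = 0.042), as it did in the authors' deposited value table at 0.75 (adjusted p = 0.0423). Within an array, the log2 signal of probe 2 minus that of probe 1 was 1.54, 1.02 and 0.92 in the VND3207 group, against 0.39, 0.33 and -0.29 in the vehicle group. The means were 1.16 ± 0.33 and 0.14 ± 0.38 (SD, n = 3 each). These 2 probes were compared because their differences had opposite signs, so the values are a description, with no test. No direction is given for Itgam as a gene. Among the 110 tested probes with at least 16 alternating bases of C and A or of T and G, 10 fell and 1 rose. Their median difference was 0.17 and their median level 4.15. The share of them that fell was 9.09%, against 14.6% of all probes tested and 4.57% of those brighter than the 75th percentile. The part of the repeat in the value of probe 3 was not tested.

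Itgax encodes CD11c, the integrin alpha chain that marks dendritic cells and many intestinal macrophages. Its levels were 1.16, 0.69 and 1.40 in the VND3207 group, against 1.12, 1.04 and 1.01 in the vehicle group. The VND3207 arrays lay on both sides of the vehicle arrays, and the difference was 0.03 ± 0.19 (SE, n = 3 each; 95% interval -0.44 to 0.49; limma adjusted p = 0.951). Both integrins pair with the beta chain Itgb2, whose difference was 0.31 (limma adjusted p = 0.542).

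Csf1r, on chromosome 18, was measured by 3 probes. On its brightest the levels were 3.88, 3.38 and 3.79 in the VND3207 group, against 3.78, 3.36 and 3.46 in the vehicle group. The groups overlapped, with a difference of 0.15 ± 0.18 (SE, n = 3 each; 95% interval -0.29 to 0.59; limma adjusted p = 0.675). The other probes differed by -0.17 ± 0.12 (adjusted p = 0.43), with all VND3207 arrays lower, and by -0.03 ± 0.17 (adjusted p = 0.94). Csf1, its main ligand, differed by 0.22 (limma adjusted p = 0.385).

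Emr1, now named Adgre1, encodes an adhesion receptor that is the classic surface antigen of mouse macrophages. On its brighter probe (chr17:57622868-57622927) the levels were 0.51, -1.0 and -0.52 in the VND3207 group, against -0.48, -0.89 and -0.92 in the vehicle group. VND3207 replicate 1 was far above the other arrays, among which the groups overlapped. The difference was 0.43 ± 0.39 (SE, n = 3 each; 95% interval -0.52 to 1.37; limma adjusted p = 0.559) and came to 0.00 without VND3207 replicate 1. The dimmer probe shown above had the same pattern, with a difference of 0.47 ± 0.37 (adjusted p = 0.491).

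Cd14, on chromosome 18, encodes the co-receptor that passes bacterial lipopolysaccharide to Tlr4. Its levels were 0.64, 0.70 and 0.48 in the VND3207 group, against 0.61, 0.23 and 0.11 in the vehicle group. On 2 of the 3 VND3207 arrays it was above every vehicle array, and the difference of 0.29 ± 0.16 (SE, n = 3 each; 95% interval -0.10 to 0.67) did not pass the test (limma adjusted p = 0.316). The scanner software marked the local background of this spot as an outlier on 4 of the 6 arrays. Tlr4 differed by 0.17 (limma adjusted p = 0.716).

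Cd163 encodes the scavenger receptor for haemoglobin bound to haptoglobin and marks a class of tissue macrophages. Its probe (chr6:124270436-124270495) was not well above background on any of the 6 arrays. Levels were -6.15, -6.67 and -6.92 in the VND3207 group, against -7.81, -7.69 and -6.31 in the vehicle group. It was not tested, and no fold is given.

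Cd68 encodes a glycoprotein of late endosomes and lysosomes that is abundant in macrophages. Its levels were -4.84, -5.58 and -5.56 in the VND3207 group, against -4.20, -4.37 and -4.75 in the vehicle group (chr11:69478979-69479038, minus strand). All VND3207 arrays were lower, by -0.89 ± 0.25 (SE, n = 3 each; 95% interval -1.50 to -0.28; limma adjusted p = 0.0681). The probe was dim, being well above background on 1 of 3 VND3207 arrays and on 3 of 3 vehicle arrays, so it passed the filter through the vehicle group and the size of its difference is uncertain. With normexp background correction the difference was -0.11 (adjusted p = 0.553). Of tested probes dimmer than the 75th percentile, 20.3% fell, against 4.57% of brighter ones. After correction for smooth trends with brightness and position on the array, the Cd68 difference turned to 0.15 (adjusted p = 0.745). The adjusted p was 0.025 without VND3207 replicate 1, at -1.13, and 0.0486 with the replicate number as a block, values that carry the same limit from low signal in the VND3207 group.

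**Figure D2:**
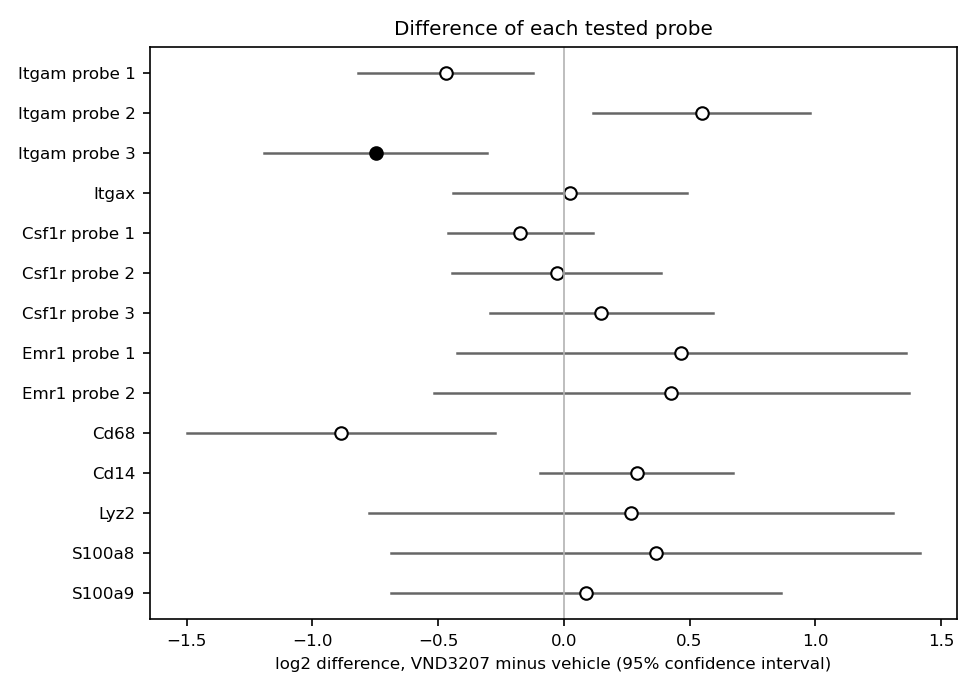
Difference between VND3207 and vehicle for each of the 14 tested member probes (log2, VND3207 minus vehicle), with points at the estimate and bars for the 95% confidence interval of the limma fit, filled where the adjusted p passed 0.05. Itgam probe 3 is the called probe, Itgam probe 2 lies on the other side of 0, and the intervals of Itgam probe 1 and Cd68 also leave out 0. Cd68 passed the filter on dim probes through the vehicle group.

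Lyz2 encodes the lysozyme of macrophages and neutrophils. Its levels were 2.14, 1.17 and 0.78 in the VND3207 group, against 1.73, 0.64 and 0.92 in the vehicle group. The highest array of each group was replicate 1, and the spread within groups was larger than the difference of 0.27 ± 0.43 (SE, n = 3 each; 95% interval -0.77 to 1.31; limma adjusted p = 0.753). Without VND3207 replicate 1 it was -0.12.

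S100a8 levels were -2.61, -3.81 and -3.49 in the VND3207 group, against -2.90, -4.02 and -4.08 in the vehicle group. Replicate 1 was again the highest of each group, and the difference was 0.37 ± 0.43 (SE, n = 3 each; 95% interval -0.69 to 1.42; limma adjusted p = 0.662). S100a9 levels (chr3:90496573-90496632, minus strand) were -0.88, -1.75 and -1.11 in the VND3207 group, against -0.83, -1.40 and -1.78 in the vehicle group. Its groups overlapped as well, with a difference of 0.09 ± 0.32 (SE, n = 3 each; 95% interval -0.69 to 0.86; limma adjusted p = 0.898). The 2 subunits of calprotectin thus shared the high replicate 1 arrays and showed no called difference. The interval of S100a8 reaches beyond a rise of 1 log2 unit and that of S100a9 does not.

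Replicate 1 was the highest array of its group on 10 of 14 member probes in the VND3207 group and on 12 of 14 in the vehicle group. The share of all tested probes with this pattern was not counted, so it is not shown to be particular to the members. In each group replicate 1 also had the most spots well above background. These were 61.4%, 58.9% and 58.8% in the VND3207 group, and 70.0%, 68.1% and 66.7% in the vehicle group. The labels do not say whether the replicate numbers pair mice. The median deviation of the fat markers from their own means was 3.53, 0.62 and -2.15 in the VND3207 group, against 1.19, -2.36 and -0.79 in the vehicle group. That of the erythrocyte markers was 0.32, -1.27 and -0.47 in the VND3207 group, against 1.41, -0.20 and 0.25 in the vehicle group. Both lists were highest on replicate 1 of each group, as the members were, and their part in the members' values was not tested. With replicate 1 of both groups left out, 0 of the 9 member genes passed in either direction.

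**Figure D3:**
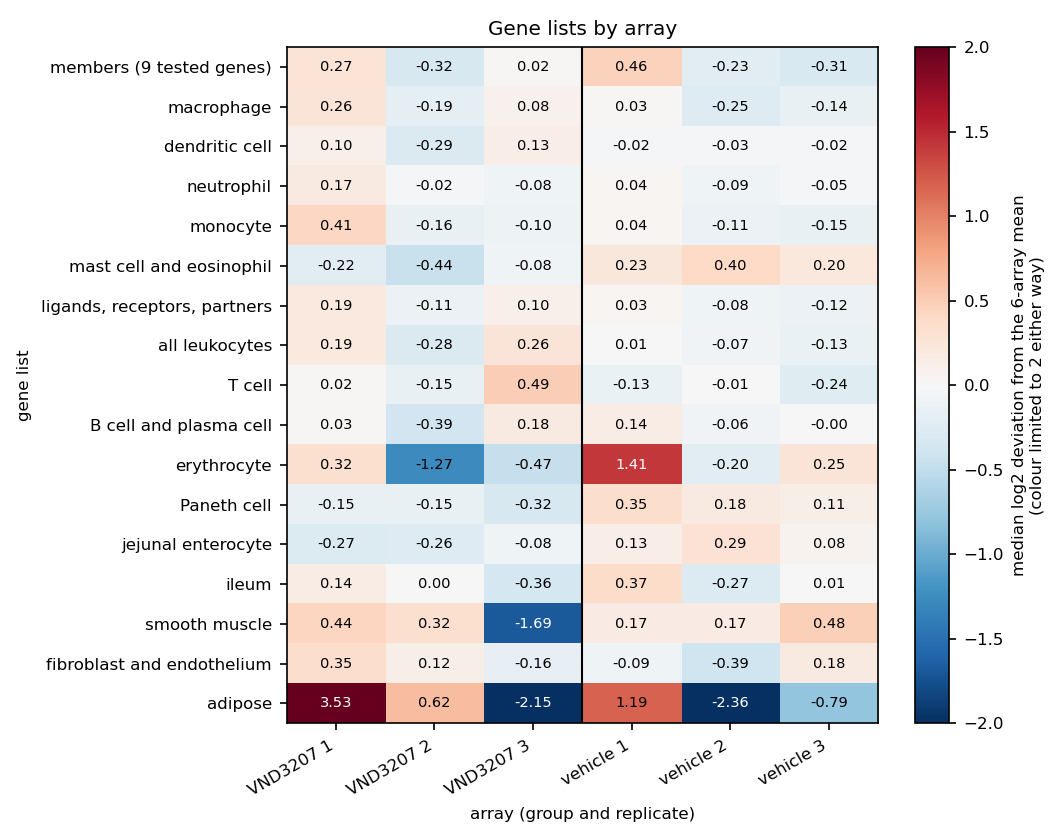
Median deviation of each gene list from its genes' own means (log2, written in each cell; the colour stops at 2 either way) on the 3 VND3207 arrays and the 3 vehicle arrays. Fat markers span the widest range, from 3.53 on VND3207 replicate 1 to -2.36 on a vehicle array, while the macrophage, dendritic cell, neutrophil and monocyte lists stay within 0.41 of 0 on every array.

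The upstream sequences of the calprotectin genes are shown because both subunits varied together over the arrays. This likeness was not particular to the pair. Over the arrays, S100a8 correlated at r = 0.882 with S100a9, at 0.900 with Lyz2 and at 0.394 with Itgax. Shared control of the pair was not tested. They are the 250 bases before each gene's start from RefSeq (GRCm38.p6), where 7 of the 10 members matched the table. Capitals mark GAGGAA, the core bound by the myeloid factor PU.1, or TTGCNNAA, a C/EBP motif, each searched on both strands, and the marked motifs do not overlap.

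S100a8, chr3:90668821-90669070, plus strand: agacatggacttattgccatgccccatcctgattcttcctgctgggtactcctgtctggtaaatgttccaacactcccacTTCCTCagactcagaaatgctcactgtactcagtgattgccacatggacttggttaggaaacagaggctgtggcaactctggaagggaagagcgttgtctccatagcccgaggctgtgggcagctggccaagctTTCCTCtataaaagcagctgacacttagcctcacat

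S100a9, chr3:90695722-90695971, minus strand: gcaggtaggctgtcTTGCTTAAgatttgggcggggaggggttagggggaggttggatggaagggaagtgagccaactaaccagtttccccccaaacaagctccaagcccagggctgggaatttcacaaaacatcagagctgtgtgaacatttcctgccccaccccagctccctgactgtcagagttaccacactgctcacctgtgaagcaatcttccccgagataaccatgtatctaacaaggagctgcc

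The S100a8 window held the PU.1 core and no C/EBP motif, and the S100a9 window held a C/EBP motif and no PU.1 core. Over the 7 member windows, the PU.1 core occurred in 3 (Itgam, S100a8, Cd68) and the C/EBP motif in 2 (Cd68, S100a9). Of 32851 promoters in the table, 23.3% held the first and 9.6% the second.

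Lists of related genes gave further counts. For comparison, 0.722% of all named genes tested rose, 8.63% fell and 49.4% were above 0. Of 20 macrophage genes tested, Emr1 (Adgre1) among them, 0 rose and 0 fell in limma's test, and 0 did so at an unadjusted p under 0.05. Of them, 14 were above 0, and the median was 0.14. Among the brightest were Ctss, a lysosomal protease (0.07), Lgals3, a galectin also made by enterocytes (-0.16), and Mertk, a receptor for dying cells (-0.02). The 12 monocyte genes gave 0 calls, with 1 higher and 1 lower at an unadjusted p under 0.05 and a median of 0.12. Among them Fn1 (0.57), Fcgr4 (0.44), Plac8 (-0.27) and Ms4a4c (-0.06) did not pass. Other probes of Plac8 and Ms4a4c stood on the opposite side of 0, at 0.25 for Plac8 and at 0.33 and 0.27 for Ms4a4c. The brightest Ms4a4c probe shared 16-base runs with 118 probes of other genes.

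Of 17 dendritic cell genes tested, 0 rose, 2 fell and 9 were above 0, with a median of 0.13. By comparison, 8.63% of all named genes tested fell. At an unadjusted p under 0.05, 0 were higher and 3 lower. Snx22, a sorting nexin, had levels of -2.51, -2.40 and -2.27 in the VND3207 group, against -1.48, -1.50 and -1.65 in the vehicle group. The difference was -0.85 ± 0.11 (SE, n = 3 each; limma adjusted p = 0.00533), a call lost with replicate 1 of both groups left out (adjusted p = 0.0661). Siglech, a lectin of plasmacytoid dendritic cells, had levels of 5.95, 6.07 and 6.48 in the VND3207 group, against 7.11, 7.45 and 7.46 in the vehicle group, a difference of -1.18 ± 0.18 (limma adjusted p = 0.00907). Its groups did not overlap, but that probe shared 16-base runs with 12 probes of other genes, and the other Siglech probe differed by -0.02 (adjusted p = 0.976). Cd74, the invariant chain of antigen presentation, differed by 0.27 and Irf8, a factor for dendritic cell development, by 0.16, neither passing the test.

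Of 17 neutrophil genes tested, 0 rose, 2 fell and 11 were above 0, with a median of 0.27. By comparison, 8.63% of all named genes tested fell. At an unadjusted p under 0.05, 2 were higher and 3 lower. The 2 higher were Mpo (0.61, limma adjusted p = 0.0917) and Cybb (0.66, adjusted p = 0.138), neither of them called. Elane, the neutrophil elastase, had levels of 0.01, 0.13 and 0.09 in the VND3207 group, against 1.31, 1.22 and 0.81 in the vehicle group. The difference was -1.04 ± 0.15 (SE, n = 3 each; limma adjusted p = 0.00783). Stfa2, a stefin that inhibits cysteine proteases, had levels of -0.04, -0.07 and -0.09 in the VND3207 group, against 1.93, 1.62 and 0.87 in the vehicle group. The difference was -1.54 ± 0.27 (SE, n = 3 each; limma adjusted p = 0.013). Both sets of arrays were separate, and with replicate 1 of both groups left out neither gene passed (adjusted p = 0.0762 for Elane and 0.0752 for Stfa2). Without vehicle replicate 2, Stfa2 did not pass (adjusted p = 0.0583). Csf3r, the receptor of the neutrophil growth factor (0.09, on a probe that shared runs with 10 probes of other genes), and Ltf, lactoferrin (0.32), did not pass. The defining neutrophil genes Ngp, Cxcr2 and Mmp8 were below the filter, and no probe was matched to Ly6g.

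Of 7 mast cell and eosinophil genes tested out of 15, 0 rose, 2 fell and 0 were above 0, with a median of -0.40. At an unadjusted p under 0.05, 0 were higher and 2 lower. All 7 were dimmer than the 75th percentile. Of all tested probes dimmer than that, 20.3% fell and the median difference was -0.16. Tpsb2, a mast cell tryptase, differed by -0.56 ± 0.12 (SE, n = 3 each; limma adjusted p = 0.0243) and Ccr3, the eosinophil eotaxin receptor, by -0.82 ± 0.19 (adjusted p = 0.0351). The Ccr3 probe was well above background on 1 of 3 VND3207 arrays and on 3 of 3 vehicle arrays, so it passed the filter through the vehicle group, and its difference was -0.21 with normexp background correction (adjusted p = 0.345). Neither call held under most alternatives, with 6 of 17 for Tpsb2 and 3 of 16 for Ccr3. Of the 8 genes below the filter, Cpa3, Cma1 and Ms4a2 are defining mast cell genes. Among 12 genes of all leukocytes, 0 rose and 0 fell, with 2 higher and 1 lower at an unadjusted p under 0.05 and a median of 0.08. The brightest were Cd52 (0.07), Coro1a (0.08), Arhgdib (0.08) and Vav1 (0.08), which white blood cells share. A second, dimmer Arhgdib probe was higher, at 0.67 (adjusted p = 0.00882).

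**Figure D4:**
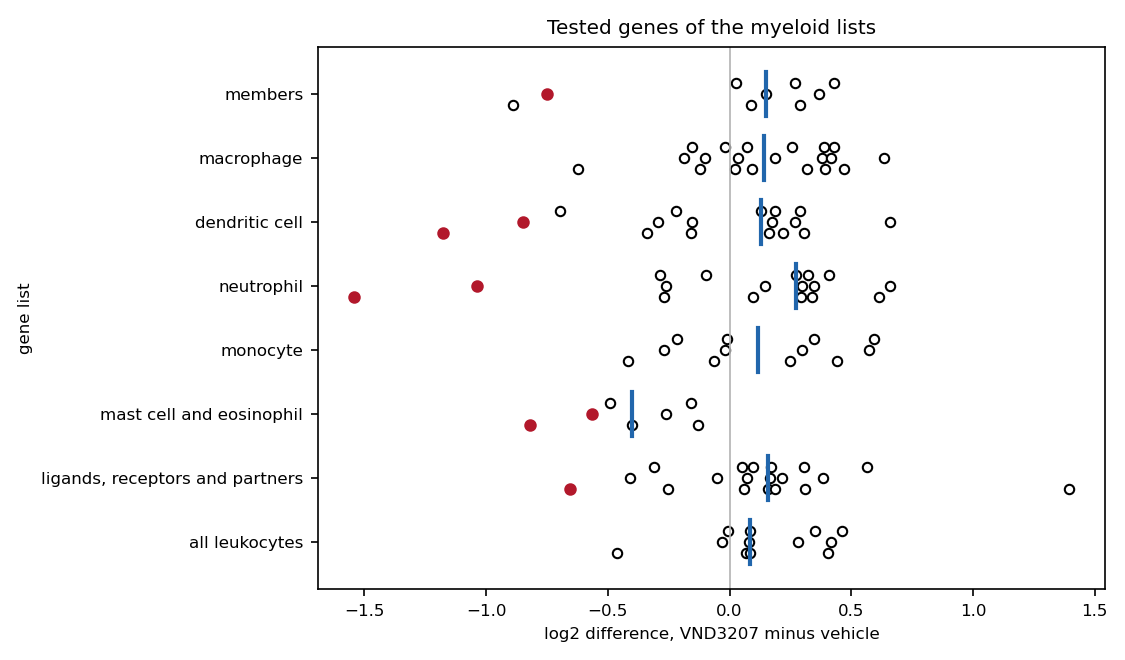
Differences of the tested genes of each related list (log2, VND3207 minus vehicle, brightest probe of each gene), with points for genes, filled where called, and bars for list medians. The medians of the macrophage, dendritic cell, neutrophil and monocyte lists lie between 0.12 and 0.27, and that of the mast cell and eosinophil list at -0.40. All tested genes of this last list were dimmer than the 75th percentile, where the median over all tested probes was -0.16.

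Of 19 ligands, receptors and partners of the members tested, 0 rose and 1 fell, Lyz1, with 14 above 0 and a median of 0.16. At an unadjusted p under 0.05, 2 were higher and 1 lower. Cebpb, a transcription factor (0.19), Csf2ra, a cytokine receptor chain (0.17), and Fcer1g, a signalling adaptor (0.05), did not pass. Csf3, Ager and Spi1 were below the filter.

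The genes most like each member over the 6 arrays were sought among 103 related genes by Pearson's r, given as a description since the 6 arrays share 2 slides and the treatment. The group difference was not removed, so probes that are lower in the VND3207 group tend to rank near one another. For Itgam on probe 3 the nearest were Stfa2 (r = 0.943) and Elane (r = 0.937), which both fell, as that probe did. This likeness therefore does not assign the probe to a cell type. Itgam probe 2 correlated with probe 3 at r = -0.61. Itgax was nearest to Ccl17 (0.989) and Mrc1 (0.960), and Csf1r to Mpeg1 (0.979) and Cd209b (0.949). Emr1 was nearest to Timd4 (0.989) and Itgb2 (0.987), and Cd68 to Retnlg (0.925) and Stfa2 (0.897). Cd14 was near to Ltf (0.952), and Lyz2 to Hp (0.953) and Lbp (0.878). S100a8 was nearest to Tyrobp (0.940) and Csf2rb (0.930), and S100a9 to Fcer1g (0.929) and Cd209b (0.922).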

How the data were processed

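Jejunum RNA of 6 mice was measured on 6 arrays, 1 per mouse, and grouped by the labels. The deposited intensity values are the processed Cy3 signals of Agilent Feature Extraction 10.7.1.1, detrended and background-subtracted per the file headers; the version is that of the submitters' processing notes. The authors' deposited value table holds log2 values, and how it was made is not given in the sources used here. There were 0 value columns without a sample. The number of arrays limits the precision. The p-values set the difference between groups against the spread of arrays within a group, with 1 mouse per array. They cannot separate treatment from slide.

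Control spots and spots marked as outliers were left out, the spots of a probe averaged, and the array's 75th percentile over 59305 non-control spots subtracted from the log2 signal. The 36097 of 55681 non-control probes well above background on at least 3 of 6 arrays were tested with limma 3.58.1 in R 4.3.3 (lmFit, eBayes; 2-sided; treatment alone in the model), with Benjamini-Hochberg adjustment over all of them and a threshold of 0.05. Errors given with ± are moderated standard errors unless called SD. The fit was tested on simulated data.

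A gene stands for its brightest tested probe, and 26582 probes were named by RefSeq accession. Symbols come from the annotation, positions (mm9) from the files. Named are all members, up to 4 genes of each related list (called genes first, then the brightest), Csf1, Itgb2, Tlr4 and Lyz1, and the 2 genes most like each member. Some genes the rule names are not reported here. A second probe of Arhgdib, and the genes Mpo and Cybb, were named after their values were seen. Members and lists were chosen with earlier results of these data known.
Alternatives were quantile normalization, normexp with an offset of 50, the deposited table, other probe filters, 1 probe a gene, array weights, a trend correction, a replicate block and each array left out. Leaving out spots with a marked background, and replicate 1 of both groups, were chosen after seeing the data.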

Additional observations from a re-analysis of the deposited data

How the results depend on the processing

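No member gene was called higher in limma's test under any of the 17 alternatives, and the number above 0 ranged from 4 to 8 (4 to 7 with single arrays left out). The number called lower, 1, became 0 with quantile normalization, the deposited table, no filter on dim probes, spots with a marked background left out, and replicate 1 of both groups left out. It ranged from 0 to 1 with single arrays left out, and the 1 without VND3207 replicate 1 was Cd68 (-1.13, adjusted p = 0.025), not Itgam. With the replicate number as a block, Itgam probe 3 had an adjusted p of 0.0916 and Cd68 of 0.0486, so the 1 call was again Cd68. The deviations of arrays with the same number correlated at 0.13, -0.11 and -0.051, and those with different numbers at -0.26 to 0.30. With 3 arrays a group these values cannot settle whether the numbers pair mice.

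Over all probes, 334 higher and 5258 lower calls (5.97% of calls higher) became 934 and 3238 (22.4%) with quantile normalization, 919 and 3176 (22.4%) with the deposited table, and 1188 and 2392 (33.2%) with the trend correction. They became 337 and 2832 with normexp, 662 and 5511 with no filter, 283 and 2921 with all 6 arrays above background, 143 and 3410 with the replicate block, and 79 and 2303 without replicate 1 of both groups. With single arrays left out they ranged from 126 to 287 and from 2966 to 5070. The median of all probes was -0.06, against 0.05 with quantile normalization, a shift over 0.1. The causes were not tested. Low signal over background limits Cd163, which was not tested, and Cd68.

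Differences that changed sign were all uncalled. They were, with quantile normalization, Csf1r probe 2 (0.074), Lgals3 (0.068), Ms4a4c (0.019) and Plac8 (0.17), and with the deposited table Csf1r probe 2 (0.073), Lgals3 (0.069), Ms4a4c (0.016) and Plac8 (0.16). With normexp they were Ctss (-0.017), Fcer1g (-0.021) and Arhgdib (-0.0026), and with array weights Itgax (-0.058) and Cd52 (-0.0042). With the trend correction they were Itgax (-0.078), Csf1r probe 2 (0.21), Cd68 (0.15), Lgals3 (0.15), Ms4a4c (0.15), Plac8 (0.11) and Vav1 (-0.019). Without replicate 1 of both groups they were Csf1r probe 2 (0.012), Csf3r (-0.0030) and Tlr4 (-0.049). With single arrays left out, differences ranged from -0.13 to 0.12 for Csf1r probe 2, -0.13 to 0.22 for Itgax, -0.12 to 0.58 for Lyz2, -0.13 to 0.34 for S100a9, -0.074 to 0.25 for Csf3r, -0.15 to 0.18 for Mertk, -0.30 to 0.10 for Ms4a4c, -0.0055 to 0.12 for Ctss, -0.021 to 0.19 for Fcer1g, -0.043 to 0.24 for Cd52, -0.061 to 0.29 for Tlr4, -0.036 to 0.30 for Arhgdib, -0.28 to 0.16 for Siglecf, -0.077 to 0.26 for Coro1a and -0.028 to 0.21 for Vav1.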
